A study of Mus musculus with 5 samples.

Results

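Type 1 conventional dendritic cells (cDC1) were described in 4 droplet single-cell RNA libraries of mouse kidney, taken through reversible unilateral ureteric obstruction (UUO), a model in which 1 ureter is blocked and the block can later be undone. All libraries came from C57/BL6 mice of 8 weeks and differed in time point: a sham operation sampled as day 0, obstruction for 2 days, obstruction for 7 days, and an obstruction undone on day 7 and sampled a week later, at day 14 of the experiment, called reversed here. Per the series' design text each library pooled 3 mice. Kidneys were digested on ice, live cells were sorted on the dye DAPI and libraries were made with the 10x 3′ V2 chemistry, per the labels' protocols. The cells were chosen by their own unique molecular identifiers (UMIs). Cells were kept from 200 genes up and with no more than 50% of UMIs mitochondrial, and a member had at least 1 UMI of Xcr1 or Clec9a, at least 3 of Irf8 and Naaa together, and none of Cd209a, Ccr7 or Cd3e. The rule found 310 of 13823 kept cells (16876 deposited): 3 in sham, 28 at day 2, 197 at day 7 and 82 in the reversed library. They were not all alike. By complement C1q UMIs they fell into 197 C1q-low cells and 113 C1q-high cells. Of the C1q-low cells 174 held at least 14 of 36 further cDC1 genes, which bears out the cDC1 name for most of them. Of the C1q-high cells only 3 did.

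cDC1 are rare phagocytes of most tissues that take up dead cells and present their antigens on MHC class I to CD8 T cells, a route called cross-presentation. They depend on the transcription factors Irf8 and Batf3 and on the growth factor receptor Flt3, and they carry the chemokine receptor Xcr1 and the dead-cell receptor Clec9a. In kidney they live beside type 2 conventional dendritic cells (cDC2) and the more numerous macrophages, with which they share MHC class II.

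With 1 library per time point no test was possible, and no p-value is given. Values are library sums or shares, and every interval is a 95% interval for counting error only, with the spread between mice not measured. The deposited libraries held 18649637 to 30462683 UMIs. The median UMIs of a kept cell were 2709 for sham, 6590 for day 2, 5732 for day 7 and 4937.5 for reversed, and the median mitochondrial shares were 33.7%, 9.80%, 2.98% and 8.36%. Members were deeper than other kept cells, with medians of 7147, 14162.5, 8913 and 9220.5 UMIs. Pairs of libraries shared 10 to 26 kept barcodes, and 0 among members.

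The 113 C1q-high members held macrophage genes and few genes of cDC1. Of 36 further genes known for cDC1, the median C1q-high cell held 8 and the median C1q-low cell 24. Exactly 1 Xcr1 or Clec9a UMI had admitted 84 of the 113 C1q-high cells and 25 of the 197 C1q-low cells, while 9 and 157 cells held 3 or more. Itgae, the CD103 integrin chain carried by many tissue cDC1, was detected in 2 C1q-high and 140 C1q-low cells. Csf1r, the receptor for the macrophage growth factor, was detected in 6 of 6 C1q-high cells on day 2, 81 of 87 on day 7 and 20 of 20 after reversal, against 3 of 22, 40 of 110 and 11 of 62 C1q-low cells. Their share of the members was 0 of 3 in sham, then 21.4% at day 2, 44.2% at day 7 and 24.4% in the reversed library.

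**Figure D1:**
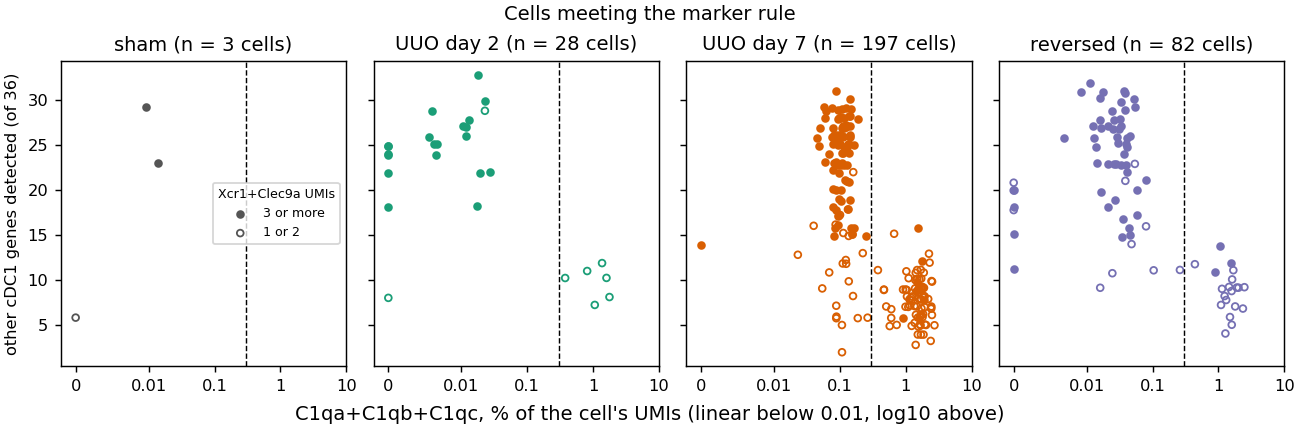
Each point is a member cell, by library, with its C1q share of UMIs on the x axis and the number of 36 other cDC1 genes detected on the y axis; filled points hold 3 or more Xcr1 and Clec9a UMIs and open points 1 or 2, and the dashed line is the limit of 0.3%. Most cells left of the line hold at least 14 of these genes (174 of 197) and most cells right of it do not (3 of 113).

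That limit, C1qa, C1qb and C1qc together under 0.3% of a cell's UMIs, was chosen after the values had been seen, and 9 members lay between 0.2% and 0.5%. Xcr1 or Clec9a UMIs were also found in cells that should lack them: on day 7, 9.77% of all C1q-high Csf1r-positive cells had such a UMI (median 6270.5 UMIs per cell), against 3.49% of T cells (median 4366) and 1.2% of endothelial cells (median 3076). With each cell thinned to 2000 UMIs these shares were 2.75% (1.99 to 3.68%), 1.74% (0.361 to 5.01%) and 0 of 83 (up to 4.35%), and their intervals overlapped. At the edge of the rule on day 7, 82 members stood at exactly 1 Xcr1 or Clec9a UMI, with a median of 8 of the 36 genes, and 944 kept cells stood just outside at 0, with a median of 7. At the other edge 31 members held 3 Irf8 and Naaa UMIs and 35 cells held 2 and were left out. The Cd209a exclusion removed 48 cells on day 7, 34 of them C1q-low with a median of 15 of the 36 genes. Gene values below are therefore those of the C1q-low cells, and the shares are given for both. Even among the C1q-low cells 23 held under 14 of the 36 genes. They were 1 of 3 cells in sham, 1 of 22 on day 2, 16 of 110 on day 7 and 5 of 62 after reversal. The sums compared below thus differ in their part of such cells. The sham cell had 6 genes, 1 Clec9a UMI and 0 of Naaa. Of the 23 cells, 3 had at least 3 UMIs of Siglech or Ly6d, which are plasmacytoid and lymphoid precursor genes.

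The genes that chose the cells are described without a test. Xcr1 (chr9:123852315-123862029, minus strand, GRCm38) had 373 counts per 1000000 summed UMIs (CPM) in the sham library, 435 at day 2, 477 at day 7 and 473 in the reversed library. The day 2, day 7 and reversed libraries lay close together, and the sham value rests on 9 UMIs, held by 2 of the 3 cells. Clec9a (chr6:129408862-129424763, plus strand) stood at 166, 167, 240.1 and 299 CPM, the highest after reversal. Irf8 (chr8:120736358-120756694, plus strand), the factor that sets cDC1 fate, stood at 2196, 2504, 2051 and 1854 CPM. Naaa (chr5:92257659-92278170, minus strand), a lysosomal amidase, stood at 1036, 2100.4, 1601 and 1642 CPM. Irf8 was the highest on day 2, and Naaa was about the same on day 7 and after reversal. None of these 4 genes differed by 2-fold between day 2, day 7 and reversal, and most genes did not either. Of genes with at least 30 UMIs in the 2 sums, 6.81% were higher and 0.643% lower on day 7, then 0.989% and 1.21% after reversal.

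Genes outside the rule gave the same identity. Itgae (chr11:73090583-73147446, plus strand) had 41.4 CPM from 1 UMI in sham, then 198 at day 2, 177 at day 7 and 173 in the reversed library, against 9.7, 3.1 and 2.2 CPM in cDC2 of the last 3 libraries. Batf3, needed for cDC1 development, stood at 143, 192 and 201 CPM from day 2 on, and Wdfy4, needed for cross-presentation of cell-bound antigen, at 285, 321 and 275 CPM. Flt3 stood at 153, 144 and 147 CPM, and Tlr3, a sensor of double-stranded RNA, at 115, 111 and 124 CPM. None of these 5 genes passed 2-fold between the 3 libraries, and most genes did not either. Of genes with at least 30 UMIs in the 2 sums, 6.81% were higher and 0.643% lower on day 7 than on day 2. After reversal 0.989% were higher and 1.21% lower than on day 7. The 36 genes together took 3.69%, 4.36%, 3.45% and 3.8% of the C1q-low UMIs in the 4 libraries, against 0.552% to 0.803% in cDC2 and 0.395% to 1.17% in macrophages.

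The genes that stood furthest above cDC2 included Ifi205, a member of the interferon-inducible p200 family, Rab7b, a GTPase of the endosome, and Ppt1, a lysosomal thioesterase. These levels are a description, since both cell types were chosen by expression. Ifi205 stood at 974, 651 and 538 CPM on day 2, day 7 and after reversal against 43, 31 and 7 CPM in cDC2, and its log2 ratio over cDC2 was at least 4.01 in each library. Gcsam followed with at least 3.70 on the log2 scale, then Rab7b with 3.47, Ppt1 with 3.43 and Itgae with 3.40. Of the 15 genes with the highest ratios, 10 were among the 36 cDC1 genes; Dnase1l3, a secreted DNase, at 2.95 and Mnda at 3.10 were not. Cst3, the protease inhibitor cystatin C, was the most abundant of the 15, at 33944, 26215 and 29454 CPM. In the other direction Dab2 was lower than in cDC2 by a log2 ratio of -3.86 to -2.80, and Itgam, the CD11b integrin chain, by -3.10 to -2.28. Tubule genes took 1.21%, 1.39% and 1.23% of the cDC2 sums on day 2, day 7 and after reversal. In the C1q-low sums they took 0.379%, 0.171% and 0.417%. The part of RNA from other cells in the lower ratios was not tested. Over macrophages the 2 leading genes were Ifi205 at 4.74 or more and Itgae at 3.96 or more.

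**Figure D2:**
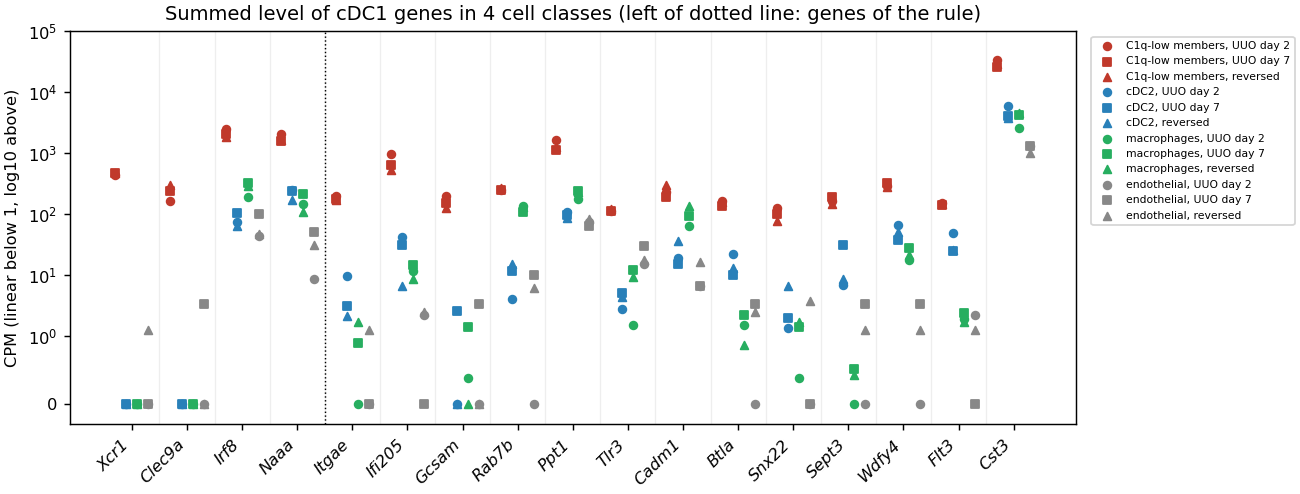
Summed CPM (y axis, linear below 1 and log10 above) of 4 rule genes, left of the dotted line, and 13 other genes, in C1q-low members, cDC2, macrophages and endothelial cells; colours give the cell type and symbols the day 2, day 7 and reversed libraries. For each of the 13 genes, Itgae, Ifi205, Tlr3 and Wdfy4 among them, the lowest C1q-low value lies above the highest value of the other 3 cell types. These 13 were taken from the leading genes over cDC2 or macrophages, so their choice largely fixes this gap. Of all 36 listed cDC1 genes, 33, 29 and 31 were higher than in endothelial cells on day 2, day 7 and after reversal. Against cDC2 the counts were 34, 34 and 35.

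The share of C1q-low cDC1 among all kept cells was lowest in sham, and the day 7 and reversed intervals overlapped: 0.0763% (3 of 3933 cells), 0.997% (0.626 to 1.51%), 2.47% (2.04 to 2.97%) and 1.92% (1.47 to 2.45%). All rule members gave 0.0763%, 1.27%, 4.43% and 2.53%. A share of kept cells moves with the number of tubule cells recovered. With at most 20% mitochondrial UMIs the order of the last 2 libraries turned, with C1q-low cDC1 at 0.463%, 1.45%, 2.63% (2.17 to 3.16%) and 2.99% (2.30 to 3.82%), and the intervals again overlapped. Among immune cells the C1q-low share was 2.94% in sham, 2.91% at day 2 (1.83 to 4.37%), 3.54% at day 7 (2.91 to 4.26%) and 6.02% in the reversed library (4.64 to 7.67%). By this measure the reversed library was the highest, the first 3 overlapped, and the interval of the 3 sham cells (0.611 to 8.36%) overlapped all others.

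Within dendritic cells the reversed library also held the largest cDC1 share. C1q-low cDC1 were 14.3% of C1q-low dendritic cells in sham (3 of 21 cells, 3.05 to 36.3%), 23.9% at day 2 (15.6 to 33.9%), 19.1% at day 7 (16.0 to 22.5%) and 33.9% in the reversed library (27.1 to 41.2%). The day 7 and reversed intervals were apart, the day 2 interval overlapped both, and the sham interval overlapped all others. cDC2 made up 85.7%, 71.7%, 69.6% and 53.6%, and Ccr7-positive dendritic cells, the migratory state, 0 of 21, 4.35%, 11.3% and 12.6%. Counted without the C1q limit, rule members were 14.3%, 26.9%, 23.8% and 38.0% of dendritic cells. The interval covers cells drawn from 1 pool, so whether mice differ by as much is unknown.

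**Figure D3:**
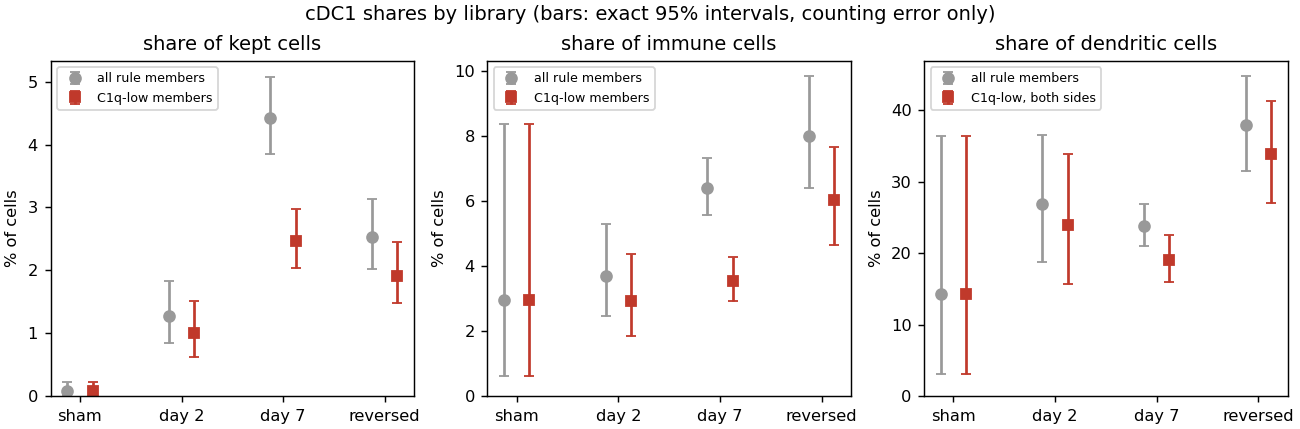
Share of cDC1 (y axis, percent) among kept cells, immune cells and dendritic cells by library, for all rule members and for C1q-low members; bars are 95% exact binomial intervals for counting error. Among kept cells, at the mitochondrial limit of 50%, day 7 is the highest, with a C1q-low interval that overlaps that of the reversed library, and among immune and dendritic cells the reversed library is.

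Day 7 against day 2 asked what differed in cDC1 as obstruction went on, and reversed against day 7 what differed a week after relief. The day 7 library serves both comparisons, so an extreme value there moves both. Ratios are log2 of CPM with 10 CPM added, which understates changes of low genes, for genes with at least 30 UMIs in the 2 sums. Of 4977 such genes 339 (6.81%) were at least 2-fold higher on day 7 than on day 2 and 32 (0.643%) at least 2-fold lower. Of 5865 genes 58 (0.989%) were at least 2-fold higher after reversal than on day 7 and 71 (1.21%) at least 2-fold lower. Over all 310 rule members 347 of 6444 genes (5.38%) were higher on day 7 and 48 (0.745%) lower, and after reversal 64 of 7142 (0.896%) were higher and 93 (1.3%) lower. A gene can also enter through the level of 1 library alone, which then fixes its direction, so counts are given as well for genes that either library's level would have admitted, 30 UMIs being reached if both libraries had that level. Of 4165 such genes in C1q-low cells 97 (2.33%) were higher on day 7 and 22 (0.528%) lower, with a median of 0.04. Of 5181 after reversal 31 (0.598%) were higher and 28 (0.54%) lower, with a median of -0.07. Over all rule members these shares were 2.39% and 0.748%, then 0.56% and 0.965%. With at least 100 CPM in the higher library the C1q-low counts were 56 higher and 11 lower of 1392 genes, then 21 and 18 of 1343. The day 2 sum holds 287564 UMIs from 22 cells, the day 7 sum 1211761 from 110 and the reversed sum 735870 from 62.

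Genes induced by interferon were higher on day 7 and lower again after reversal. Interferons signal through cell-surface receptors to induce antiviral and antigen-presentation genes in nearly every cell. Of 28 listed genes 24 entered the first comparison, but 14 of these did so only through their day 7 level, so that the filter had fixed their direction. The other 10, which either library's level would have admitted, were all above 0 on the log2 scale, 6 of them at least 2-fold higher, with a median of 1.15, against 2.33% and a median of 0.04 over all genes that either level admits. With no minimum 27 of 28 were above 0 and 19 at least 2-fold higher (median 1.21), and the 24 entered genes, 18 of them at least 2-fold higher, had a median of 1.24, against 6.81% and 0.10. In the second comparison 6 of 26 entered genes did so only through day 7. The other 20 were all below 0 and 3 were at least 2-fold lower, with a median of -0.54, against 0.54% and -0.07. With no minimum 27 of 28 were below 0, and of the 26 entered 5 were at least 2-fold lower (Ifit2, Isg15, Irf7, Rtp4 and Zbp1), with a median of -0.65, against 1.21% and -0.08. Over the alternative settings the medians ran from 0.98 to 1.55 and from -0.83 to -0.51. Without cells holding Mki67 or Top2a none of the 5 stayed 2-fold lower after reversal (Ifit2 -0.55, Irf7 -0.81, Zbp1 -0.93, Isg15 -0.94 and Rtp4 -0.98), and with equal weight per cell Irf7 (-0.97), Ifit2 (-0.95) and Rtp4 (-0.76) did not either.

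Irf7, the factor that amplifies type I interferon, had 82.9 CPM in the sham library, 108 at day 2, 268 at day 7 and 121 in the reversed library. Its log2 ratios were 1.24 (0.74 to 1.77) and -1.09 (-1.42 to -0.77). It was found in 31.8%, 70.0% and 46.8% of the cells of the last 3 libraries, and 1 day 2 cell held 14 of the 31 UMIs there. Without cells holding Mki67 or Top2a the first ratio was 0.43. Isg15, a ubiquitin-like modifier, stood at 41.4, 66.1, 229 and 78.8 CPM, with log2 ratios of 1.65 and -1.43. Day 7 was the highest library for both genes.

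Several antiviral effectors were at 0 on day 2. Gbp2, a guanylate-binding GTPase, had 70.1 CPM at day 7 and 32.6 CPM in the reversed library, the first at least 6.72-fold higher than what the 3-count limit allows for day 2; 1 day 7 cell held 40 of its 85 UMIs. Rsad2 was at least 4.19-fold higher and Ifit2 at least 3.88-fold higher by the same limit. Setting such genes at these bounds left the list median at 1.24. The bounds given lie above that median, so it could not have moved through them. Genes within 2-fold in both comparisons included Bst2, the virus-tethering protein, at 209, 296 and 171 CPM in the last 3 libraries (456 in sham, where 1 cell held 10 of 11 UMIs), and Phf11b at 290.0, 250.4, 300.4 and 211 CPM. In sham, with 3 cells, Irf7 rests on 2 UMIs and Isg15 on 1.

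**Figure D4:**
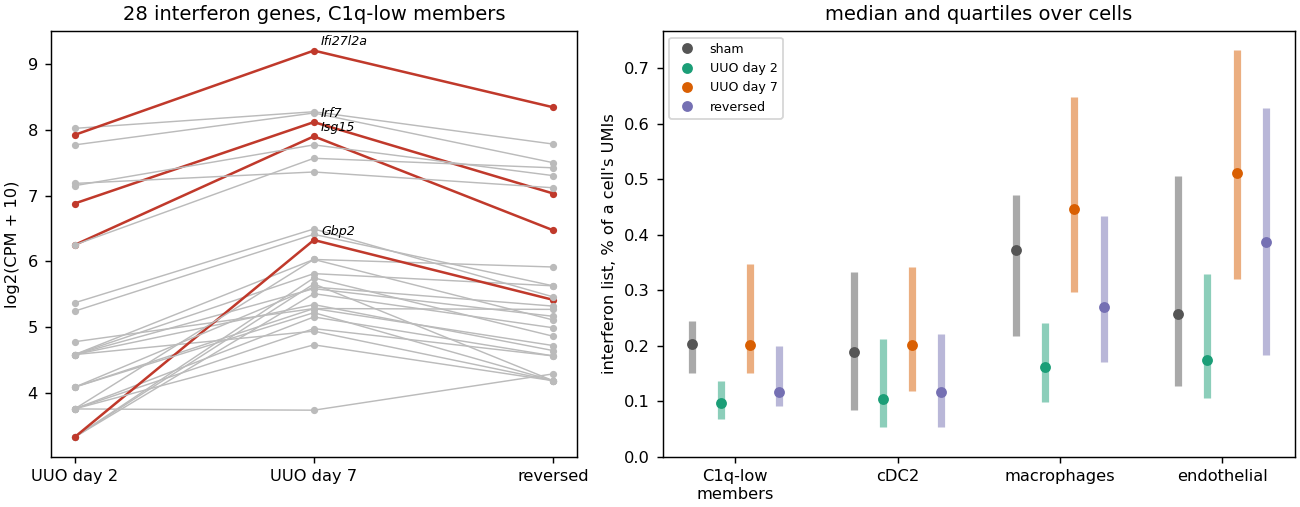
Left, log2 of CPM with 10 CPM added (y axis) in C1q-low members for each of 28 interferon-induced genes, 1 line per gene over the day 2, day 7 and reversed libraries, with 4 genes in red; right, the share of a cell's UMIs in these genes (y axis, percent) by cell type and library, with the median as a point and the quartiles as a bar. On the left 27 of 28 lines peak at day 7, and on the right day 2 has the lowest median in each cell type.

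The same order was present in the other cell types of the same libraries. The median C1q-low cell had 0.0966% of its UMIs in the 28 genes at day 2, 0.20% at day 7 and 0.116% in the reversed library, and the median cDC2 0.104%, 0.20% and 0.116%. Macrophages had 0.161%, 0.445% and 0.270%, and endothelial cells 0.173%, 0.511% and 0.387%. Day 2 was also below sham, where the medians were 0.203% in the 3 C1q-low cells, 0.189% in 18 cDC2, 0.373% in 24 macrophages and 0.256% in 243 endothelial cells. The day 7 medians of C1q-low cells and cDC2 were thus close to those of sham. On day 7, 14 of the 28 genes were higher in C1q-low cells than in cDC2 and 9 of 28 higher than in endothelial cells. Rsad2 stood at 653 CPM in endothelial cells and 43.7 in C1q-low cells, and Isg15 at 338 and 229 CPM, whereas Phf11b stood at 74 and 300.4 CPM and Irf7 at 233 and 268 CPM. How much of a C1q-low value is RNA taken up from other cells or from the droplet fluid was not tested.

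Promoters are shown for 4 genes because the interferon genes were higher together on day 7. The element searched was the core of the interferon-stimulated response element, GAAA, any 2 bases, then GAAA again, on both strands and with overlapping matches counted, in the RefSeq windows of 250 bases before to 50 after each start (GRCm38.p6). Of 28 listed interferon genes 21 matched a window, and 14 of these (66.7%) held the element, as did 3 of 27 matched genes of the cDC1 list (11.1%; Tlr11, Rnase6 and Ifi205) and 3.99% of all 27025 genes with a window. The 250 bases before each start are printed 5′ to 3′ on the gene's strand, with matches in capitals; a match on the other strand reads TTTC, any 2 bases, TTTC.
Isg15: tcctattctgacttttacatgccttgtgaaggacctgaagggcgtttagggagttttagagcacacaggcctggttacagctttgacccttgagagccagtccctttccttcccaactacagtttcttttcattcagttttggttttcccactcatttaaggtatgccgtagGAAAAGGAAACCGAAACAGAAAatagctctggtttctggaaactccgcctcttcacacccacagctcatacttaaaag
Ifit3: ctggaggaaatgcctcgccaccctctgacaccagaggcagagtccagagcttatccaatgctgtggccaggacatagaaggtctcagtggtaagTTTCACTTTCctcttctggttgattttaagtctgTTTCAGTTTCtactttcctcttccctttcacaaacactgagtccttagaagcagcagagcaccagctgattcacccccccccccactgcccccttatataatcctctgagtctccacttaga
Gbp2: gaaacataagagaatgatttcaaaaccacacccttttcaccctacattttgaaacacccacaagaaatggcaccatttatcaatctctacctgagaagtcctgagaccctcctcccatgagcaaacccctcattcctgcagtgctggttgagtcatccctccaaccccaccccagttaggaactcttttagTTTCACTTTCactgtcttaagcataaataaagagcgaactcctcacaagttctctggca
Ifi205: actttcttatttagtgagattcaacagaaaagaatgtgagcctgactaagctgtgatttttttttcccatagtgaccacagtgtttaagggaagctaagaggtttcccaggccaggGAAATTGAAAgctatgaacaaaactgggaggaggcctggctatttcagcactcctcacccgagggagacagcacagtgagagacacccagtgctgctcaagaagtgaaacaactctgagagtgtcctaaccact
The windows are chr4:156200819-156201068 (minus strand) with 3 overlapping matches from 78 bases before the start, chr19:34583279-34583528 (plus strand) with 2 from 156 bases, chr3:142620413-142620662 (plus strand) with 1 at 59 bases and chr1:174031756-174032005 (minus strand) with 1 at 134 bases. Ifi205, the cDC1 gene among them, had log2 ratios of -0.57 and -0.27 and so did not share the course of the other 3. Ifit3, a tetratricopeptide antiviral protein, stood at 3.5 CPM on day 2, 25.6 on day 7 and 13.6 after reversal, with log2 ratios of 1.4 and -0.59; day 2 held 1 UMI, and the first ratio was 0.91 over all rule members. The pattern TGANTCA, the core AP-1 element, was in 7 of 21 interferon genes (33.3%), 3 of 27 cDC1 genes (11.1%) and 8.97% of all genes. A match describes letters and is not evidence of binding.

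MHC class II genes were abundant at every time point. None of 14 passed 2-fold in either comparison, where 6.81% and 0.989% of all genes were higher and 0.643% and 1.21% lower, so that the count is near that of all genes. Their medians were -0.02 and 0.01, and together they took 6.09%, 7.78%, 6.43% and 6.66% of the UMIs. Cd74, the class II invariant chain, stood at 30412, 37220 (day 2), 28410 and 29827 CPM, the highest on day 2. H2-Ab1 stood at 12016, 15645, 13297 and 13551 CPM. Both genes stayed within 2-fold between the last 3 libraries.

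The MHC class I route, which cross-presentation feeds, took a larger share of UMIs than in cDC2 from day 2 on. The 24 listed genes took 1.2%, 1.18%, 1.32% and 1.19% of C1q-low UMIs against 1.19%, 0.828%, 0.943% and 0.815% in cDC2, with sham about equal. Macrophages took 0.940%, 1.55% and 1.32% from day 2 on and Ccr7-positive dendritic cells 1.70% on day 7 and 1.59% after reversal, so that the share was above that of cDC2 but not above that of these cells on day 7 and after reversal. Psmb8, an immunoproteasome subunit, stood at 1036, 1457, 1419 and 1101 CPM against 567, 660, 620 and 489 in cDC2. Psmb9, another, stood at 124, 629, 712 and 705 CPM against 246, 174, 211 and 137. Tap1, the peptide transporter, stood at 226, 269.9 and 264 CPM from day 2 on against 91, 98 and 73. Sham held 3 Psmb9 UMIs and 1 Tap1 UMI. Day 7 against day 2 put 2 of 21 class I genes past 2-fold higher, against 6.81% of all genes, and 1 of the 20 that either library's level would have admitted, against 2.33%. They were H2-T23, a non-classical class I chain, at 83.5 and 186 CPM (log2 1.07, and 0.95 with equal weight per cell) and Cybb, the phagosome oxidase chain, at 10.4 and 70.1 CPM (log2 1.97). After reversal 0 of 22 class I genes passed 2-fold, against 0.989% higher and 1.21% lower of all genes.

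Chemokine sums differed between the libraries, and for several genes a single cell held much of the sum. Of 16 genes entered, 7 were at least 2-fold higher on day 7 (Ccl9, Ccl5, Ccl6, Cxcl9, Ccl2, Ccl3 and Cxcl10) and 1 lower (Ccl17), against 6.81% and 0.643% of all genes. Of the 10 that either library's level would have admitted 3 were higher and 1 lower, against 2.33% and 0.528%. After reversal 2 of 18 were higher and 3 lower, against 0.989% and 1.21%, and of the 13 that either level would have admitted 1 was higher and 1 lower, against 0.598% and 0.54%. Over all rule members the balance on day 7 turned, with 2 of 19 entered genes higher and 7 lower, against 5.38% and 0.745%. Ccl2 was lower there by a log2 ratio of -2.35 (-2.59 to -2.10). The first list median, 0.92, was -0.03 over those 19 genes and -0.14 with a C1q limit of 0.5%, so no direction is given for the list.

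Cxcl9, which draws Cxcr3-bearing T cells, had 0 CPM in the sham library, 17.4 at day 2, 93.3 at day 7 and 156 in the reversed library, with log2 ratios of 1.91 and 0.69. It was found in 9.09%, 17.3% and 17.7% of cells, and cells without a UMI cannot be told from cells that express it at a low level. A single cell held 37 of 113 Cxcl9 UMIs on day 7 and another 45 of 115 after reversal. Without cells holding Mki67 or Top2a the second Cxcl9 ratio was -0.48. Ccl5, another T cell attractant, stood at 0, 20.9, 165 and 43.5 CPM, with log2 ratios of 2.50 and -1.71. With at least 2 or 3 Xcr1 or Clec9a UMIs required the second ratio was -0.93 or -0.87. Ccl5 was present in 54.5% of day 7 cells and 35.5% of reversed cells, and 1 day 7 cell held 48 of 200 UMIs. On day 2 the Ccl5 value rests on 6 UMIs.

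Ccl17, a ligand of Ccr4, had 0 CPM in the sham library, 358 at day 2, 109.8 at day 7 and 552 in the reversed library, with log2 ratios of -1.62 and 2.23. On day 2 a single cell held 79 of 103 Ccl17 UMIs, 16 of 17 Ccl22, 19 of 28 Cd83 and 38 of 48 Il1b, and after reversal a single cell held 298 of 406 Ccl17 UMIs. Ccl17 was found in 18.2%, 35.5% and 30.6% of cells, so the order of the library sums was not the order of the shares of cells. Without cells holding Mki67 or Top2a the first ratio was 0.18 and the second 0.60. Cxcl10 stood at 0, 27.8, 72.6 and 10.9 CPM, but 1 cell held all 8 day 2 UMIs and 1 cell 38 of 88 on day 7; without cells holding Mki67 or Top2a its ratios were -0.84 and 0.10. Ccl9 stood at 0, 3.5, 243 and 190.3 CPM with a first log2 ratio of 4.23, which was 0.59 with a C1q limit of 0.5%, and 1 day 7 cell held 89 of 295 UMIs. Ccl6, of which 1 day 7 cell held 117 of 421 UMIs, had a ratio of -0.40 at that limit, which admits 1 more day 2 cell and 3 more day 7 cells.

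**Figure D5:**
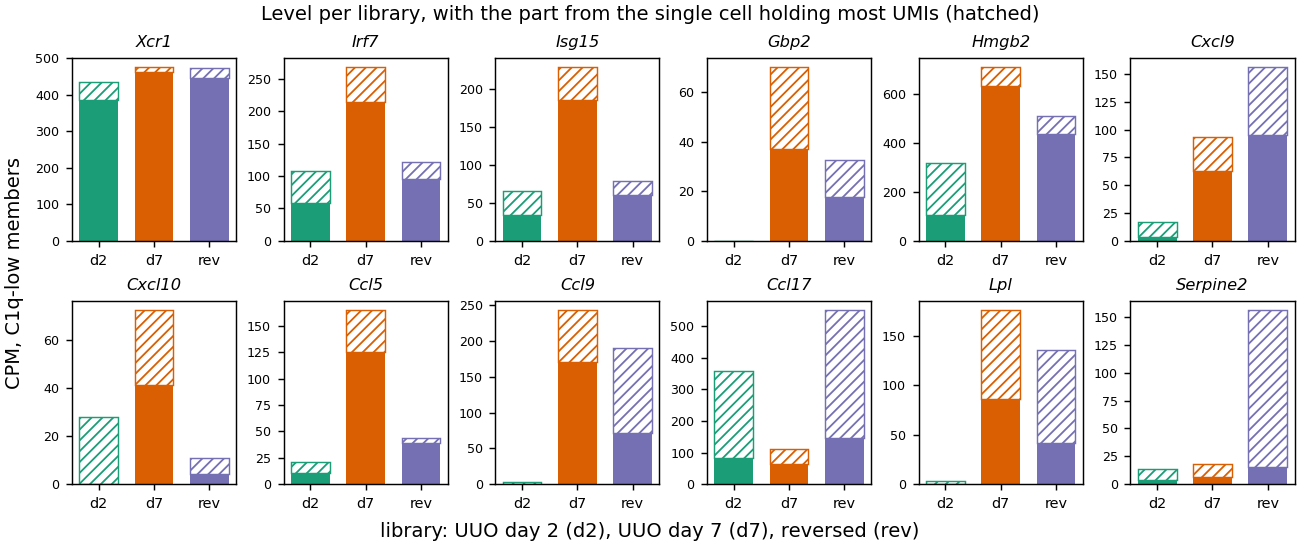
CPM in C1q-low members (y axis, from 0, with a scale of its own for each gene) of 12 genes in the day 2, day 7 and reversed libraries, with the part that comes from the single cell holding most of the UMIs hatched. The hatched part is 76.7% of Ccl17 on day 2, 73.4% of Ccl17 and 90.4% of Serpine2 after reversal, against 3.11% of Xcr1 on day 7.

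Interleukin 12, which cDC1 make to drive T helper 1 responses, was hardly detected. Il12b had 12 UMIs, all in 3 cells of the reversed library, and Il12a had 0 in every library. At day 7, 0 Il12b UMIs of 1211761 allows up to 2.48 CPM. Of the co-stimulatory genes 1 of 10 was at least 2-fold higher on day 7 (Sirpa) and 0 of 12 passed 2-fold after reversal, both near the shares over all genes. Sirpa entered only through day 7. It had 2 UMIs on day 2, in 1 cell, and its ratio of 1.34 was 0.76 with a C1q limit of 0.5%. Cd86, a ligand of CD28, stood at 82.9, 170.4, 143 and 156 CPM, against 11 to 53 CPM in cDC2. Cd83, a maturation marker, stood at 0, 97.4, 75.1 and 135 CPM, the highest after reversal, where 50% of cells held it.

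Few receptors, sensors and transcription factors passed 2-fold. Of the genes that either library's level would have admitted none was 2-fold higher on day 7 (0 of 13 receptors, 0 of 8 sensors and 0 of 16 factors), against 2.33% of all such genes, and the 4 genes given next that passed 2-fold entered through day 7 alone. Of all entered genes 6.81% were higher. Of 16 chemokine, cytokine and growth factor receptors 2 were at least 2-fold higher on day 7, Csf1r at 13.9 and 56.1 CPM and Cx3cr1 at 7.0 and 58.6 CPM, and of 18 only Cx3cr1 was lower after reversal, at 20.4 CPM. Ccr2, which lets monocytes and dendritic cell precursors leave the blood, stood at 424, 531 and 554 CPM from day 2 on and at 787 CPM in sham, where the cell with 6 cDC1 genes held 13 of 19 UMIs. Of the pattern sensors 1 of 10 was higher on day 7, Ifih1, an RNA sensor that interferon induces, from 1 UMI to 30. Of the transcription factors 1 of 18 was higher, Zeb2, which favours cDC2 and monocyte fates, at 17.4 and 63.5 CPM. With at least 3 Xcr1 or Clec9a UMIs required the Zeb2 ratio was 0.45, and with a C1q limit of 0.5% that of Csf1r was 0.44. Both lists had 0 genes past 2-fold after reversal, where 0.989% of all genes were higher and 1.21% lower. Of the 36 cDC1 genes 1 of 33 entered was lower on day 7, against 0.643% of all genes, with a list median of -0.22, and 0 passed 2-fold after reversal, with a median of 0.07. That gene was Sult1a1, a sulfotransferase, at 76.5 and 28.9 CPM, and its ratio of -1.15 was -0.94 over all rule members.

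The shares of cells with cell cycle RNA had overlapping intervals at the 3 later time points. With each cell thinned to 2000 UMIs, 36.4% of C1q-low cells at day 2 (17.2 to 59.3%), 37.3% at day 7 (28.2 to 47.0%) and 41.9% in the reversed library (29.5 to 55.2%) held at least 2 UMIs of 25 cell cycle genes, and 0 of 3 in sham. Unthinned, the shares were 77.3%, 85.5% and 91.9%. The cDC2 shares were 40.9%, 31.7% and 19.4% (12.1 to 28.6%), so that the reversed intervals of the 2 dendritic cell types were apart. By thinned Mki67 or Top2a UMIs the C1q-low shares were 4.55% at day 2 (1 of 22 cells, 0.115 to 22.8%), 13.6% at day 7 (7.84 to 21.5%) and 12.9% in the reversed library (5.74 to 23.9%), where cDC2 had 9.18% (4.29 to 16.7%), and these intervals overlapped. In the summed UMIs, 13 of 25 genes were at least 2-fold higher on day 7 than on day 2 and 0 lower, against 6.81% of all genes, with a median of 1.02.

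The median depended on which cells were counted. Top2a, a DNA-untangling enzyme of dividing cells, stood at 38.3, 126 and 74.7 CPM, and 1 cell held all 11 of its day 2 UMIs. Hmgb2 stood at 317, 711 and 511 CPM, and the same cell held 61 of 91 on day 2. Mki67, the Ki-67 protein, was found in 3 of 22, 25 of 110 and 14 of 62 cells. Over all rule members 0 of 25 genes were at least 2-fold higher on day 7 and 1 was lower, against 5.38% and 0.745% of all genes. The cell cycle median was then -0.28, and Top2a had a log2 ratio of 0.04. In the C1q-low cells the counts were as follows. Of the 25 genes 6 had entered only through their day 7 level, and the other 19 had a median of 0.62, with 8 at least 2-fold higher, against 0.04 and 2.33% of all such genes. On day 7 these UMIs were spread over more cells, with 23 of 153 Top2a UMIs and 17 of 89 Mki67 UMIs in the top cell. After reversal 3 of 25 genes were lower (median -0.47), against 1.21% of all genes, and of the 22 that either library's level would have admitted 2 were (median -0.39), against 0.54%.

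Macrophage genes in the C1q-low cells are given beside the same genes in endothelial cells, which should lack them. These endothelial cells were chosen to hold no immune UMI. They were also shallower, with a median of 3076 UMIs on day 7 against 11068.5 in C1q-low cells. Their values can thus lie below the stray RNA of other cells, and a gap is not a measured excess. Of 14 such genes entered 12 were at least 2-fold higher on day 7, against 6.81% of all genes, and of the 8 that either library's level would have admitted 7 were, against 2.33%. After reversal 6 of 16 entered were lower, against 1.21%, and 4 of the 12 that either level would have admitted, against 0.54%. C1qa, whose level in these cells the C1q limit bounds, stood at 0, 20.9, 404 and 128 CPM in C1q-low cells and 6, 44, 382 and 95 CPM in endothelial cells. Apoe, a lipid carrier, stood at 41.4, 153, 2034 and 811 CPM against 426, 512, 2419 and 1225. The whole list of 18 genes took 0.120%, 0.116%, 0.573% and 0.441% of C1q-low UMIs and 0.0844%, 0.160%, 0.480% and 0.234% of endothelial UMIs. The median C1q-low cell had 0.154%, 0.101%, 0.495% and 0.230% and the median endothelial cell 0.0636%, 0.121%, 0.462% and 0.236%, so that the reversed medians were close while the sums were not. Lyz2 stood at 829, 619, 1967 and 2821 CPM in C1q-low cells against 14, 179, 768 and 365 in endothelial cells, but after reversal 1 cell held 618 of 2076 UMIs and 3 cells 72.6%. The part of macrophage RNA in these values was not tested. The defining cDC2 gene Cd209a is 0 by the rule, and Mgl2, another cDC2 gene, stood at 0, 7.0, 158 and 44.8 CPM, with a first log2 ratio of 3.31 that was 0.18 over all rule members. Of 21 listed cDC2 genes 11 entered, 6 of them only through day 7, and 8 were at least 2-fold higher on day 7 (median 1.47), against 6.81% of all entered genes (median 0.10). Of the 5 that either library's level would have admitted 2 were higher (median 0.47), against 2.33% of all such genes. Over all rule members 4 of 11 such genes were higher (median 0.59), against 2.39%. In C1q-low cells after reversal 4 of 13 entered cDC2 genes were lower (median -0.40), against 1.21%. Of the 10 that either level would have admitted 3 were lower (median -0.28), against 0.54%.

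Tubule genes are given in the same way. Gpx3, a secreted peroxidase of proximal tubule, stood at 2900.3, 869 (day 2), 196 (day 7) and 1473 CPM, with log2 ratios of -2.10 and 2.85, the lowest on day 7. In endothelial cells it stood at 6147, 2532, 298 and 4050 CPM, in the same order. Slc34a1 and Miox, of the same cells, were higher after reversal by 2.15 and 2.76 on the log2 scale and stood at 118 and 119.6 CPM there, against 469 and 374 CPM in endothelial cells. Of 12 tubule genes entered, 8 were at least 2-fold higher after reversal and 0 lower, against 0.989% and 1.21% of all entered genes. Of the 9 that either library's level would have admitted 5 were higher and 0 lower, against 0.598% and 0.54% of all such genes. On day 7, 1 of 8 entered was higher and 4 lower, against 6.81% and 0.643%, and of the 5 that either level would have admitted 1 was higher and 2 lower, against 2.33% and 0.528%. All 16 listed tubule genes had UMIs in the C1q-low cells of the day 7 and reversed libraries.

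Among the other leading genes, Plac8, a gene of monocytes, was found in most cells. It stood at 704, 678, 934 and 265 CPM, with log2 ratios of 0.46 and -1.78, and was found in 95.5%, 81.8% and 64.5% of cells from day 2 on. Its reversed level was the lowest, its cDC2 levels were 577, 659 and 427 CPM, and under the alternatives the second ratio ran from -2.75 to -1.45. Fos, an immediate-early factor, stood at 41.4, 153, 238 and 459 CPM, with a second log2 ratio of 0.92; 1 reversed cell held 77 of its 338 UMIs. Fosb was the 1 of 21 immediate-early genes past 2-fold higher after reversal (1.22), against 0.989% of all genes, and was 0.88 with equal weight per cell, 0.93 without the highest doublet scores and 0.83 over all rule members. In endothelial cells it stood at 10 and 156 CPM. Egr1 and Atf3 were the 2 of 20 past 2-fold higher on day 7, against 6.81% of all genes, each from 4 UMIs on day 2 and each entered only through day 7. With a C1q limit of 0.5% their ratios were 0.10 and 0.053, and over all rule members 0.43 and 0.84.

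Other leading ratios differed in how many cells carried them. Ccl12, a chemokine, was lower after reversal by a log2 ratio of -2.07 and was found in 55 of 110 day 7 cells, with 3 of 80 UMIs in the top cell. Others came mostly from 1 cell or a few. Serpine2 and Tagln were higher after reversal by 2.56 and 2.43 on the log2 scale, but 1 cell held 104 of 115 and 36 of 39 UMIs, and with at least 3 Xcr1 or Clec9a UMIs required they were 0.60 and 0.56. Ly6d was lower on day 7 by a log2 ratio of -2.16, with all 29 day 2 UMIs in 1 cell, and was 0.38 with that requirement. Mmp12 and Lpl were higher on day 7 by 3.18 and 3.79, from 1 UMI each on day 2, and were 0.54 and 1.03 with that requirement. Chil3 was higher on day 7 by 1.22 with 54 of 65 UMIs in 1 cell, and was -0.52 with that requirement. Ifitm1 was lower after reversal by a log2 ratio of -3.08, from 104 UMIs, 46 of them in 1 cell, to 1.

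cDC2 of the same libraries are set beside these values with a limit, since their sums hold genes of other cell types, as do those of C1q-low cDC1. On day 7 the leading cDC2 ratios were those of Col3a1 (2 UMIs on day 2 and 2530 on day 7), Col1a2 and Col1a1, fibroblast collagens, and after reversal Jchain, Igkc and Ighm, antibody genes of B lineage cells. All 11 listed endothelial genes were at least 2-fold higher in cDC2 on day 7, where 7.54% of all entered genes were, but 4 of them entered only through day 7. The other 7 stand against 4% of the genes that either library's level would have admitted, and tubule genes took 1.39% of the day 7 cDC2 sum against 0.193% of the median cDC2. In C1q-low cDC1 Col3a1 had 0, 69 and 5 UMIs at day 2, day 7 and after reversal. Of 3 endothelial genes entered there, each only through day 7, 2 were at least 2-fold higher on day 7, against 6.81%. With no minimum all 11 were above 0 and 7 at least 2-fold higher (median 1.26). The part of such RNA in the cDC2 and cDC1 counts was not tested. Of 9545 genes entered in cDC2, 720 (7.54%) were at least 2-fold higher on day 7 and 53 (0.555%) lower, against 6.81% and 0.643% in C1q-low cDC1. Of the interferon genes that either library's level would have admitted 7 of 24 were at least 2-fold higher in cDC2 (median 0.54), against 4% of all 7779 such genes (0.656% were lower), and 6 of 10 in cDC1 (median 1.15), against 2.33%. After reversal 150 of 9862 genes (1.52%) were at least 2-fold higher in cDC2 and 141 (1.43%) lower, and of such interferon genes 7 of 25 were lower in cDC2, where 0.914% of all such genes were lower and 1.26% higher, and 3 of 20 in cDC1, against 0.54%. The cell cycle median on day 7 was -0.47 in cDC2 and 1.02 in C1q-low cDC1, but -0.28 over all rule members. The difference between the cell types was not tested, with 1 library each.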

How the data were processed

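For each of 4 droplet libraries the authors deposited a matrix of unnormalized UMI counts, and for 1 Smart-seq2 sample a table of read counts per gene and well. Alignment and counting named Cell Ranger and STAR on GRCm38 (mm10), per the submitters' processing notes. Depth ranged from 18649637 to 30462683 UMIs per library. Each library was its own group, with no replicate.

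The members, gene lists and tests were chosen with earlier results of these data known, and the C1q limit of 0.3% after the values had been seen. Genes named are those of the rule, list members with high counts or ratios, the 10 leading ratios each way, and the 15 genes furthest from cDC2 and macrophages. cDC2 had at least 1 UMI of Cd209a and 3 of H2-Ab1 and none of Xcr1, Clec9a, Ccr7 or Cd3e. Ccr7-positive dendritic cells held Ccr7 and Fscn1 and no Cd3e. Gene values of both are those of cells with under 0.3% C1q UMIs. Macrophages had Csf1r and none of Xcr1, Clec9a, Cd209a, Ccr7 or Cd3e, and their gene values are those of cells with at least 0.3% C1q. Endothelial cells had at least 3 endothelial UMIs and no immune UMI. Immune cells had at least 3 immune UMIs and 0.1% of UMIs.

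UMIs were summed per library and cell type and scaled to CPM. Ratios used a pseudocount of 10 CPM and exact conditional binomial intervals, shares exact Clopper-Pearson intervals, and a count of 0 a limit of 3 counts over the sum. Scripts were tested on simulated data. No doublets were removed. Scrublet's automatic threshold marked 1 to 3 cells a library and so had not worked; as an alternative the highest scores were removed at 0.8% per 1000 cells, which took 2, 0, 8 and 3 members. Gene positions are from GENCODE vM21 and promoters from RefSeq, both GRCm38. Work was done with scanpy 1.11.5 (Scrublet), edgeR 4.0.16 (TMM factors only), scipy 1.17.1, matplotlib 3.10.9, pandas 2.3.3 and numpy 2.4.6 under Python 3.11.15.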

Additional observations from a re-analysis of the deposited data

Results flagged for a closer look

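The Smart-seq2 sample, 768 wells of 8 plates with all time points mixed, entered no comparison, and wells with cDC1 genes were also found in it. Of 416 wells with at least 50000 reads and 500 genes, 21 met a matching rule (Xcr1 and Clec9a at least 10 CPM, Irf8 and Naaa at least 30 CPM, Cd209a, Ccr7 and Cd3e under 10 CPM). Only 5 of them were C1q-low, with 10 to 21 of the 36 other cDC1 genes at 10 CPM or more (median 19). The other 16 were C1q-high, with 4 to 11 of these genes (median 6.5). Wdfy4 was above 500 CPM in 4 of the 5 C1q-low wells, at 547, 6851, 1957 and 1313 CPM, and at 0.427 CPM in the fifth, which also had Csf1r at 1389 CPM. Tlr3 was detected in 3 of the 5, at 173, 273 and 638 CPM. A C1q-high well had more, at 1170 CPM, and the highest Wdfy4 values of C1q-high wells were 180 and 159 CPM. In the order of the C1q-low Wdfy4 values, Itgae stood at 0, 1071, 3.5, 0 and 0 CPM and Xcr1 at 0, 79.4, 0, 240 and 0 CPM. At least 10 CPM of Xcr1 and Clec9a was found in 42 of all 273 C1q-high wells (15.4%, exact interval 11.3 to 20.2%) and in 18 of all 143 C1q-low wells (12.6%, 7.63 to 19.2%), and these intervals overlapped. The time point of a well is not given in the labels used here.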

How the results depend on the processing

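No paired analysis was possible because each time point is 1 library with no replicate number. Of 99 named ratios past 2-fold, all 99 stayed past it with a pseudocount of 1 CPM or a mitochondrial limit of 20%, 98 with TMM factors, 97 with a C1q limit of 0.2%, 96 without the highest Scrublet scores, 90 with a C1q limit of 0.5%, 86 with equal weight per cell, 80 and 79 with at least 2 and 3 Xcr1 or Clec9a UMIs, 76 without cells holding Mki67 or Top2a and 69 over all rule members. Signs turned for Ly6d on day 7 (0.46 and 0.38) and Chil3 (-0.56 and -0.52) with at least 2 and 3 UMIs, for Ccl6 (-0.031), Ccl12 (-0.62) and the cell cycle median (-0.28) over all rule members, for Ccl6 (-0.40) with a C1q limit of 0.5%, and for Cenpf (-0.35), Cxcl10 (-0.84, and 0.10 after reversal) and Ccl17 (0.18) without cells holding Mki67 or Top2a. Over all rule members the day 7 signs of Ccl2 (-2.35) and of the cytokine median over the 19 genes entered there (-0.03) turned too. The cytokine median also turned with a C1q limit of 0.5%. The cause was not tested beyond the single cells named above.

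Shares of kept cells were 0.463%, 1.85% and 3.91% in sham, day 2 and reversed with a mitochondrial limit of 20% (0.463% in sham and 2.63% on day 7 for C1q-low cells, 19.8% of dendritic cells on day 7), and 0.589%, 2.05% and 1.67% on day 2, day 7 and after reversal when thinned. They were 2.59% and 1.95% on day 7 and after reversal with at least 2 UMIs, 2.47% and 1.92% for C1q-low cells, and on day 7 3.33% with at least 5 Irf8 and Naaa UMIs and 5.87% without exclusions. The day 7 share of dendritic cells was 15.4% with at least 2 UMIs, 19.1% for C1q-low cells, 19.0% with at least 5 Irf8 and Naaa UMIs, 29.5% without exclusions and 20.1% when thinned. Cell cycle shares were 77.3%, 85.5% and 91.9% unthinned.

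Gene counts of rule members were 738 higher and 118 lower on day 7, then 143 and 274, with a pseudocount of 1 CPM, and 65 and 23, then 19 and 37, at 100 CPM, and 128 higher, then 36 and 62, at either library's level; with at least 2 UMIs 29 were lower on day 7. C1q-low counts were 601 and 70, then 120 and 185, with a pseudocount of 1 CPM, 579 and 64, then 110 higher, from 10 UMIs, 579 and 80, then 119 higher, with no minimum, 56 and 11, then 21 and 18, at 100 CPM, and 97 and 22, then 31 and 28, at either level. The cytokine list median on day 7 moved to 0.043 over all rule members and to -0.14 with a C1q limit of 0.5%. The value of 0.043 is not over the 19 genes that entered among all rule members, whose median was -0.03. Its sign over all rule members thus depended on the genes counted. Other list medians moved to 0 and 0.12 for the cell cycle (without Mki67 or Top2a cells) and 0.10 for MHC class II (equal weight per cell). Monocyte genes after reversal moved to -0.28 and -0.30 (at least 2 and 3 UMIs). They stood at -0.32 with no minimum and 0.10 for the 5 that either library's level would have admitted. Macrophage genes on day 7 moved to 2.12 (either level).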

Other observations

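Some genes outside the accounts above also differed between the C1q-low sums, as values with no test. Spp1, the matrix protein osteopontin, had 41.4 CPM from 1 UMI in sham, then 2191 at day 2, 934 at day 7 and 927 in the reversed library, all in C1q-low cells, against 225, 7828, 10031 and 3045 in cDC2. After reversal 1 cell held 362 of 682 Spp1 UMIs. The log2 ratio of Spp1 on day 7 against day 2 was -1.22, and -0.985 without cells holding Mki67 or Top2a. How much of the Spp1 value is RNA of other cells was not tested.

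A few cDC1 genes stood higher after reversal, with log2 ratios (10 CPM added to each level) below 1, but the list as a whole did not: of 33 entered cDC1 genes 19 were above 0 and 14 below, 0 passed 2-fold, and the median was 0.07. The genes below were chosen after their values had been seen. Hepacam2 stood at 40.4 CPM on day 7 and 89.7 after reversal (log2 0.98), Cadm1, an adhesion molecule, at 193 and 300.3 CPM (0.61), and Cd36, a scavenger receptor, at 114 and 183 CPM (0.64). Cd24a had 829 CPM in the sham library, 734 at day 2, 478 at day 7 and 347 in the reversed library, and 399 to 718 CPM in endothelial cells.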
